A study of Mus musculus with 10 samples.

Results

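The p53 family comprises the transcription factors p53, p63 and p73, encoded in the mouse by Trp53, Trp63 and Trp73. These genes and their regulators Mdm2, Mdm4 and Sfn were chosen by name, as 6 of the 24594 genes counted, and all 6 passed the filter on low counts and were tested. p53 responds to DNA damage and other stresses and switches on genes of cell cycle arrest and apoptosis. Mdm2 is the ubiquitin ligase that marks p53 for degradation, Mdm4 (also MdmX) is its relative that binds and inhibits p53, and Mdm2 is itself a p53 target gene. p63 is a defining factor of the basal layer of stratified and glandular epithelia, including the mammary gland, where its shorter ΔN form is the main product. Sfn encodes 14-3-3 sigma, an epithelial adaptor protein that holds cell cycle proteins in the cytoplasm and that binds p53.

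Both groups came from the virgin mammary glands of wild type C57BL/6J mice. Glands were digested with enzymes, and the epithelium was sorted by flow cytometry on EpCAM and CD49f into luminal cells, which line the ducts and can secrete milk, and basal cells, which surround them and contract. No sample carried a transgene or received a treatment, and the labels give no age, while the study's methods describe adult mice. There were 5 libraries of each cell type, with 13203146 to 17998165 counts per library. In all 10 libraries the title gives the cell type opposite to the cell type label, while the source name and the letter in the library description follow the label, and the label was used here. Of the markers, 9 of 9 luminal genes (such as Krt8 and Elf5) were higher and 7 of 7 basal genes (such as Krt5 and Acta2) were lower in the libraries labelled luminal. If the titles were right, every direction below would turn. The labels do not state that the libraries come from separate animals, so p-values measure only the spread between these libraries.

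p53 family proteins bind a 10-base half-site, usually as a tandem pair. The sequence before the start of a member is shown only where it holds no exon of a protein-coding gene. Both Mdm4 windows also hold no exon but are not printed. The half-site is its own reverse complement in pattern, so both strands were searched at once. RefSeq windows of the 250 bases before a start (GRCm38, the assembly behind mm10) were at hand for 5 of the 6 members, Trp63 being the exception. Capitals mark a match.
Trp73, internal start, chr4:154097174-154097423, minus strand: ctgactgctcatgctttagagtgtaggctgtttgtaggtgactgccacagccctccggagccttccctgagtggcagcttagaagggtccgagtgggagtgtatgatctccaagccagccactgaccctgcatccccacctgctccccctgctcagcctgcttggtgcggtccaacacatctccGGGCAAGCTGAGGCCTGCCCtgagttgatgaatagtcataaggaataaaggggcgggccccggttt
Mdm2, upstream start, chr10:117710759-117711008, minus strand: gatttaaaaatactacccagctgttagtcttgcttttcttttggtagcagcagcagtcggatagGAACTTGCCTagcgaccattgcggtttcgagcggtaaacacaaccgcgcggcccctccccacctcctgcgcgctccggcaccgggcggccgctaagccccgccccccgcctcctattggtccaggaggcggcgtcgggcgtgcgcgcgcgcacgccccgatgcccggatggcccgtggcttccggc
Trp53, exon-free gap to its neighbour Wrap53, chr11:69580256-69580347, plus strand: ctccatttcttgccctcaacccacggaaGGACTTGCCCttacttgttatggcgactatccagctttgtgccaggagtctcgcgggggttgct
Sfn, chr4:133602169-133602418, minus strand: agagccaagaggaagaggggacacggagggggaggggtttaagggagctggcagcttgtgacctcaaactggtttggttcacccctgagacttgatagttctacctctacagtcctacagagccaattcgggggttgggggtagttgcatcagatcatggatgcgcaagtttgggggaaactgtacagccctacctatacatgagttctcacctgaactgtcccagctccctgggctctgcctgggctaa

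The Trp73 window holds a tandem pair of half-sites with 1 mismatch in each half-site, from 66 to 47 bases before the start. Such a pair was found in 57 of 32851 windows of this length, or 0.174%. The window lies inside an exon of Trp73os, a non-coding gene on the other strand. The Mdm2 window holds 1 exact half-site, and 7.13% of all windows (2341 of 32851) hold at least 1. The Trp53 gap also holds 1, but at 92 bases it is shorter than the windows behind that share. The Sfn window, both Mdm4 windows and the Trp73 window before the upstream start hold neither kind of match. A match describes these letters only, and binding was not measured. No base of Mdm2 after its upstream start was searched.

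In the luminal libraries all 6 genes were lower than in the basal libraries (adjusted p between 4.93e-11 and 0.00454, edgeR quasi-likelihood test with Benjamini-Hochberg adjustment). The difference ran from 247-fold for Trp63 to less than 2-fold for Mdm2 and Mdm4. On scaled library totals the groups overlapped for none of the 6, but on unscaled totals they overlapped for Mdm2 and Mdm4. These populations differ widely: 64.8% of the 14609 genes tested passed the same threshold, 31.2% as lower and 33.6% as higher in luminal cells, and 25.3% had every luminal library below every basal one. A call or a lack of overlap for a single member is therefore common among all genes. Counts come from bulk RNA, so fewer cells expressing a gene and less RNA per cell cannot be told apart. Levels below are depth-scaled counts (CPM) on scaled library totals, and fold changes are luminal minus basal on the log2 scale with the standard error (SE).

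**Figure D1:**
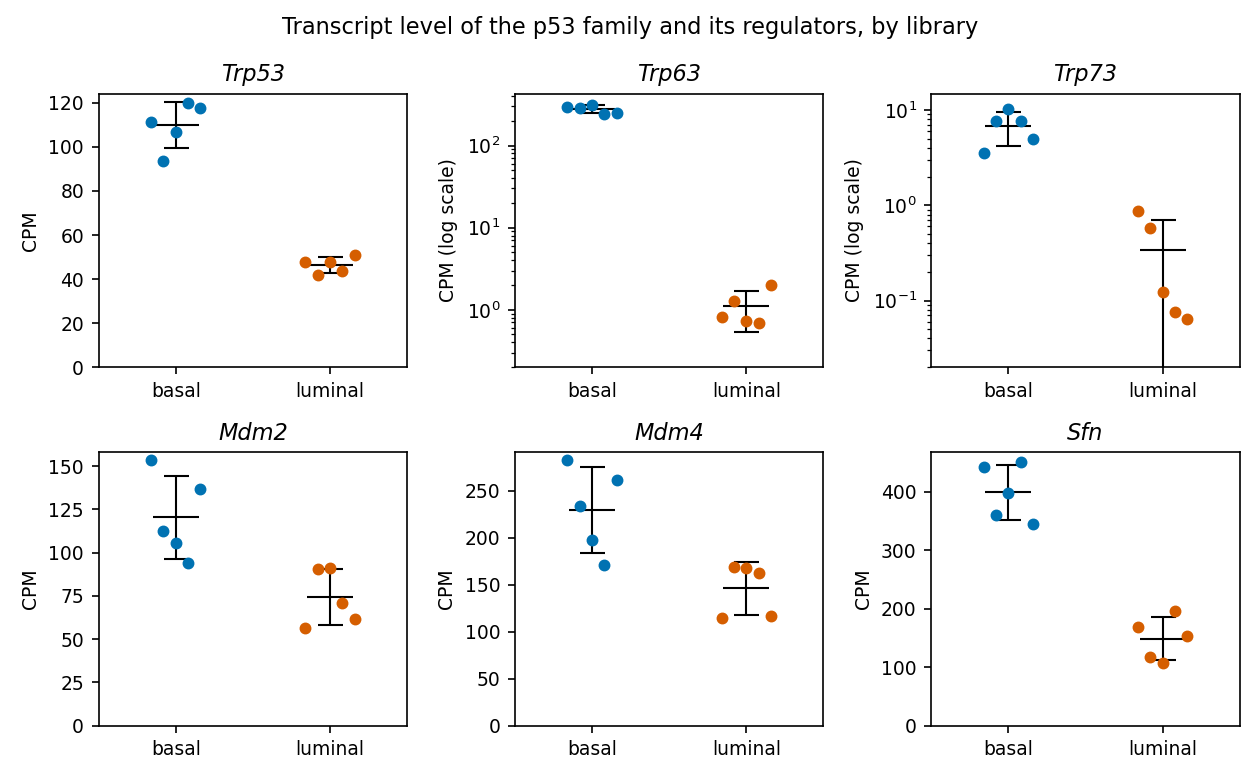
CPM of each member in the 5 basal and 5 luminal libraries (points), with the mean and SD as bars. The axis is logarithmic for Trp63 and Trp73, where the lower bar of luminal Trp73 runs off the axis, and linear from 0 for the others. In each panel every luminal point lies below every basal point.

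Trp63, which encodes p63 (Entrez 22061, chromosome 16, 25683763 to 25892088, plus strand), was counted 4702, 4230, 4046, 3865 and 4196 times in basal replicates 1 to 5 and 13, 24, 12, 9 and 32 times in luminal replicates 1 to 5. On the CPM scale these are 293, 288, 313, 241 and 251 in basal libraries and 0.812, 1.26, 0.735, 0.686 and 2.03 in luminal libraries. The basal libraries are all high and close together, and the luminal libraries are all near the bottom of the measured range. The means were 277 ± 29.9 CPM (SD, n = 5) and 1.10 ± 0.565 CPM (SD, n = 5), with a log2 fold change of -7.95 (SE 0.27, adjusted p = 4.93e-11, edgeR). Counted from the lowest log2 fold change, Trp63 ranked 74 of the 14609 genes tested. The luminal level was between 0.248% and 0.731% of the basal mean, highest in luminal replicate 5.

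The residue of Trp63 in luminal libraries was set beside that of the 7 basal markers (Krt5, Krt14, Acta2, Myh11, Oxtr, Cnn1 and Mylk), each as a percentage of its own basal mean. In luminal replicates 1 to 5 Trp63 was at 0.293%, 0.455%, 0.265%, 0.248% and 0.731%, and the median of the markers was at 0.293%, 0.259%, 0.219%, 0.273% and 0.429%. In each luminal library Trp63 lay within the range of the 7 markers, and both were highest in replicate 5. How far the residue comes from basal cells in the luminal gate was not tested. RefSeq lists 8 transcripts of Trp63, and counts per gene do not separate the full-length (TA) from the ΔN forms.

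Trp73, which encodes p73 (Entrez 22062, chromosome 4, 154056249 to 154139875, minus strand), was the rarest member in both populations. It was counted 57, 113, 134, 124 and 84 times in basal replicates 1 to 5, or 3.55, 7.70, 10.4, 7.74 and 5.03 CPM. In luminal replicates 1 to 5 it was counted 14, 11, 2, 1 and 1 times, or 0.875, 0.579, 0.123, 0.0763 and 0.0634 CPM. Luminal replicates 1 and 2 stand above the other luminal libraries, though still below the lowest basal one. The means were 6.88 ± 2.65 CPM (SD, n = 5) and 0.343 ± 0.366 CPM (SD, n = 5), giving a log2 fold change of -4.25 (SE 0.59, adjusted p = 2.02e-05, edgeR). Without luminal replicate 1, the luminal library with the most counts, it was -4.87.

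As a percentage of the basal mean, Trp73 was at 12.7% and 8.42% in luminal replicates 1 and 2 and at 1.78%, 1.11% and 0.922% in replicates 3 to 5, the latter values resting on 2, 1 and 1 counts. It lay above all 7 basal markers in replicates 1 to 4 and within their range in replicate 5, the margin in replicate 4 being small (1.11% against 1.05%). Trp73 and Trp63 did not follow one another across luminal libraries, Trp63 being highest where Trp73 was lowest. The antisense gene Trp73os shares 280 exon bases with Trp73, and whether the counting used strand is not given in the sources used here, so part of these few counts may belong to either gene.

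Trp53, which encodes p53 (Entrez 22059, chromosome 11, 69580348 to 69591873, plus strand), was at 111, 93.4, 107, 120 and 118 CPM in basal replicates 1 to 5. In luminal replicates 1 to 5 it was at 47.8, 41.8, 47.7, 43.8 and 50.8 CPM. The luminal libraries are tightly grouped and sit far below the lowest basal library. The means were 110 ± 10.5 CPM and 46.4 ± 3.55 CPM (SD, n = 5 each), giving a log2 fold change of -1.24 (SE 0.12, adjusted p = 6.13e-07, edgeR), the smallest SE of the 6 members. The luminal mean was 42.2% of the basal mean.

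Wrap53, chosen after its values were seen, begins next to Trp53 on the other strand (Entrez 216853, chromosome 11, 69561754 to 69580250) and encodes a protein of telomerase and Cajal body function. The part of the gap between them that is printed above is free of exons of either gene in GENCODE, where Wrap53 reaches slightly further than in RefSeq. It was at 132, 311, 237, 317 and 286 CPM in luminal replicates 1 to 5 and at 168, 140, 174, 204 and 140 CPM in basal replicates 1 to 5. Unlike Trp53 it was higher in luminal cells, with a log2 fold change of 0.64 (SE 0.21, adjusted p = 0.0171, edgeR). The groups overlapped, with luminal replicate 1 below every basal library.

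The make-up of the family was then compared. Each gene's CPM was divided by its exon length in kb, and Trp63 was taken as a share of the sum over Trp53, Trp63 and Trp73. In basal replicates 1 to 5 the share was 55.4%, 58.4%, 56.8%, 48.1% and 49.9%. In luminal replicates 1 to 5 it was 0.802%, 1.42%, 0.737%, 0.749% and 1.89%. Per kb of all annotated exons, basal libraries held Trp63 and Trp53 at similar levels, whereas the family transcripts of luminal libraries were nearly all Trp53 (98.3% ± 0.711, against 44.3% ± 4.68 in basal libraries, SD, n = 5 each). The mean Trp63 share was 1.12% ± 0.516 in luminal and 53.7% ± 4.48 in basal libraries (SD, n = 5 each), a difference of -52.6 percentage points with a 95% interval from -56.8 to -47.4. The exact two-sided permutation p was 0.00794, the smallest that 5 against 5 libraries allow. The Trp63 difference given above already fixes this separation, so the p is not a separate result. Without division by length, under which basal Trp63 stands well above Trp53 (277 against 110 CPM), the difference in share was -68.0 points. Trp73 made up 0.540% ± 0.568 and 2.02% ± 0.737 (SD, n = 5 each).

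**Figure D2:**
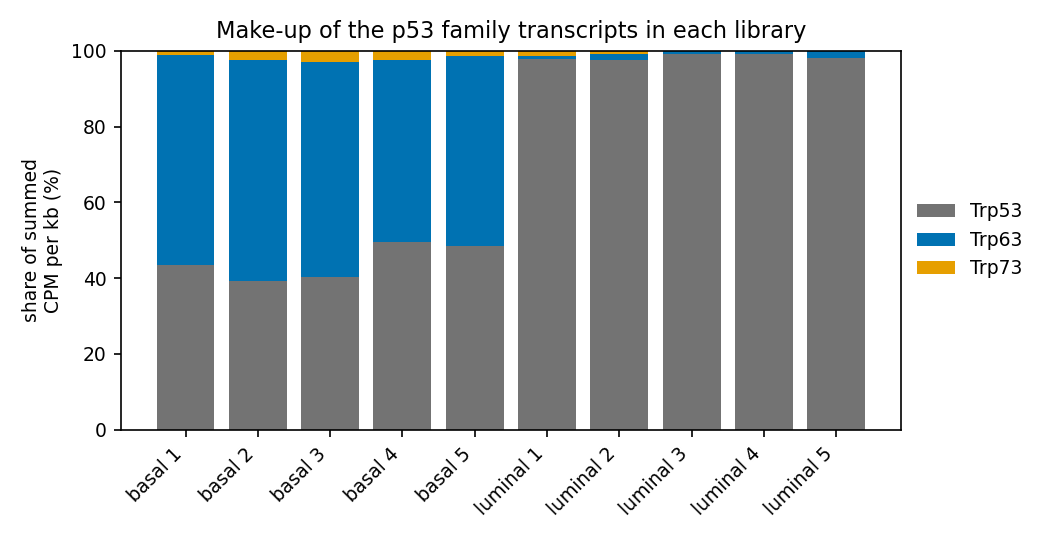
Share (%) of Trp53, Trp63 and Trp73 in their summed CPM per kb of exon, one stacked bar per library. Trp63 takes 48.1% to 58.4% of the bar in basal libraries and 0.737% to 1.89% in luminal libraries.

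Mdm2 (Entrez 17246, chromosome 10, 117688875 to 117710758, minus strand) was at 153, 112, 105, 94.0 and 137 CPM in basal replicates 1 to 5. The luminal replicates 1 to 5 were at 56.6, 90.7, 91.2, 71.2 and 61.5 CPM. The highest luminal value lies just under the lowest basal value, so the groups are only narrowly apart. The means were 120 ± 24.2 CPM and 74.2 ± 16.2 CPM (SD, n = 5 each), giving a log2 fold change of -0.70 (SE 0.18, adjusted p = 0.00326, edgeR).

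Mdm4 (Entrez 17248, chromosome 1, 132986105 to 133030587, minus strand) was at 283, 234, 198, 171 and 261 CPM in basal replicates 1 to 5. Its luminal values in replicates 1 to 5 were 114, 169, 168, 162 and 117 CPM. Here too the groups are narrowly apart. The means were 229 ± 45.4 CPM and 146 ± 27.9 CPM (SD, n = 5 each), giving a log2 fold change of -0.65 (SE 0.17, adjusted p = 0.00454, edgeR). Library totals in place of TMM factors moved all 6 members upward. The log2 fold changes were then -0.49 for Mdm2 (adjusted p = 0.0314, edgeR) and -0.45 for Mdm4 (adjusted p = 0.0371, edgeR). Under that scaling the groups overlapped for both genes, and luminal replicate 3 lay above basal replicate 3. Mdm2 was counted 1489 times among 13979347 in luminal replicate 3 and 1363 times among 13676558 in basal replicate 3. Mdm4 was counted 2740 and 2562 times in the same libraries.

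Mdm2 and Mdm4 moved together from library to library. In basal cells the 5 libraries had the same order for both genes, with replicate 1 highest and replicate 4 lowest, and in luminal cells replicates 1 and 5 were the lowest for both. By the root-mean-square difference of centred log2(CPM + 1) over the 10 libraries, Mdm4 was the closest of 10789 genes to Mdm2 (0.0953), and Mdm2 the closest to Mdm4, though Ago3 (0.0960) and Nfx1 (0.0984) were almost as close to Mdm4. The basal order is not particular to the pair, since Mtbp, Crebbp and Sesn2 were also highest in basal replicate 1 and lowest in basal replicate 4. The log2 ratio of Mdm2 to Mdm4 per kb (pseudocount 0.1) was 0.556 ± 0.125 in luminal and 0.608 ± 0.0759 in basal libraries (SD, n = 5 each). The difference was -0.0521 with a 95% interval from -0.212 to 0.0890 and an exact two-sided permutation p of 0.524.

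**Figure D3:**
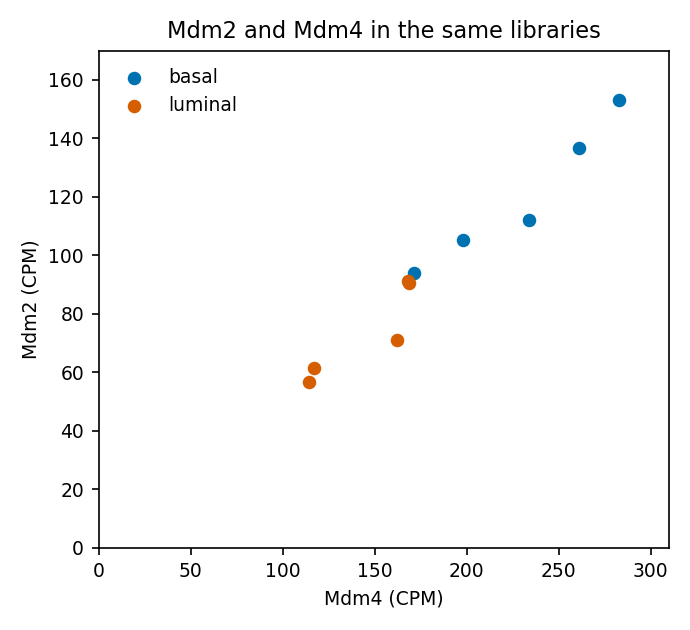
CPM of Mdm2 against CPM of Mdm4, one point per library, with both axes from 0. Basal libraries run from 94.0 to 153 for Mdm2 and luminal libraries from 56.6 to 91.2, along one band.

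The ratio of Mdm2 to Trp53, the inhibitor to its target, was compared in the same way. Its log2 values per kb were -0.0848, 0.781, 0.603, 0.368 and -0.0529 in luminal replicates 1 to 5. In basal replicates 1 to 5 they were 0.134, -0.0646, -0.349, -0.678 and -0.113. Luminal replicates 1 and 5 lie among the basal libraries. The means were 0.323 ± 0.387 and -0.214 ± 0.311 (SD, n = 5 each), a difference of 0.537 with a 95% interval from 0.0118 to 1.09 and an exact two-sided permutation p of 0.0476. That p was above 0.05 (0.0635 to 0.0952) when any of luminal replicates 2, 3 or 4 or basal replicates 2, 3, 4 or 5 was left out. The difference itself stayed positive, between 0.421 and 0.639, whichever of the 10 libraries was left out.

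Sfn (Entrez 55948, chromosome 4, 133600556 to 133602168, minus strand, a gene of 1 exon) was at 441, 360, 398, 450 and 345 CPM in basal replicates 1 to 5. In luminal replicates 1 to 5 it was at 169, 118, 108, 196 and 154 CPM. The groups are well apart, the lowest basal value being well above the highest luminal one. The means were 399 ± 47.2 CPM and 149 ± 36.4 CPM (SD, n = 5 each), giving a log2 fold change of -1.42 (SE 0.18, adjusted p = 7.27e-06, edgeR).

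The other 14-3-3 genes encode widely expressed adaptors of the same family. Their calls were close to the background of 31.2% lower and 33.6% higher over all genes. Of 6 tested, 2 were lower in luminal cells, Ywhag (log2 fold change -0.83) and Ywhaz (-0.58), and 2 were higher, Ywhae (0.56) and Ywhaq (0.53). Ywhab and Ywhah did not pass the threshold, at 0.11 and -0.26. The median log2 fold change of these 6 was -0.07, against 0.05 over all genes tested.

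**Figure D4:**
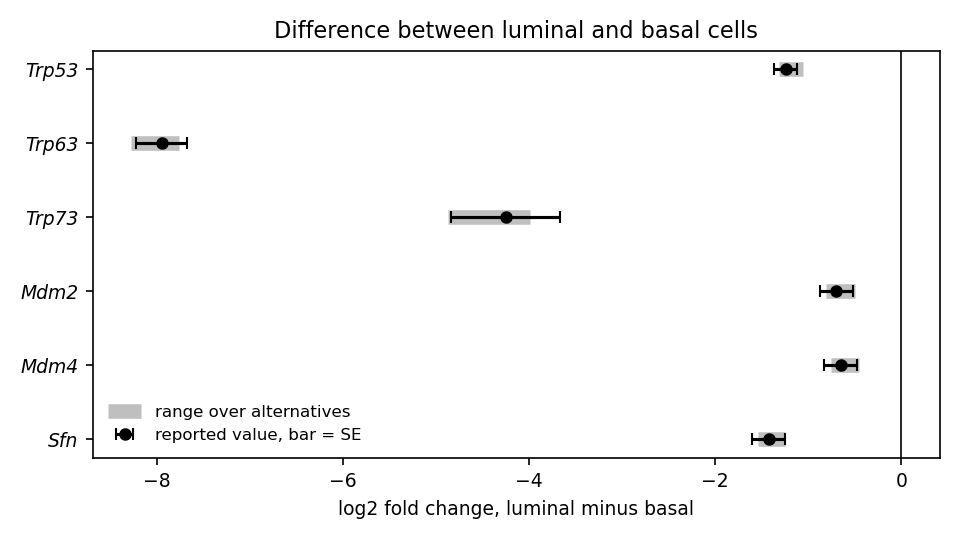
Log2 fold change, luminal minus basal, of each member (point) with its SE (bar). The grey band is the range over all alternatives run. Every point and band lies below 0, from -7.95 for Trp63 to -0.65 for Mdm4.

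Levels were compared between genes per kb of exon. In basal libraries the order of the mean level was Sfn (247 CPM per kb), Trp63 (33.0), Trp53 (27.1), Mdm2 (23.7), Mdm4 (15.5) and Trp73 (1.24). In luminal libraries it was Sfn (92.3 CPM per kb), Mdm2 (14.6), Trp53 (11.5), Mdm4 (9.87), Trp63 (0.132) and Trp73 (0.0620). Sfn stood first in both, with no overlap with the next gene. In luminal libraries this rests on the division by length. Without it Sfn (108 to 196 CPM) and Mdm4 (114 to 169 CPM) overlapped there, while basal Sfn stayed above the other members. In basal libraries the ranges of Trp63 and Trp53 and of Trp53 and Mdm2 overlapped, and the first of each pair was higher in 4 of 5 libraries. Mdm2 and Mdm4 also overlapped in range, but Mdm2 was higher per kb in 5 of 5 basal libraries. Without division by length that order turned, Mdm4 being above Mdm2 in every basal and luminal library. In luminal libraries the ranges of Mdm2 and Trp53 and of Trp53 and Mdm4 overlapped, the first being higher in 3 of 5 libraries, as did those of Trp63 and Trp73, with Trp63 higher in 4 of 5. Apart from Mdm2 over Mdm4 in basal cells, the order of these overlapping neighbours was not the same in every library. The lengths span all annotated exons and are longer than any single transcript for genes such as Mdm4.

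By the same likeness measure the genes closest to Trp53 were Isg20l2 (0.0900), Zdhhc8 and Mcm7. Those closest to Trp63 were A330033J07Rik (0.259), Rcn3 and Irx4, and those closest to Sfn were Ccdc194 (0.0868), Rpn1 and Nfe2l2. After Mdm4, Rhbdf1 and Zc3h11a were closest to Mdm2, at 0.111 and 0.113. Trp73 had Slc16a3 (0.255), Eogt and Gbe1 as its neighbours, although the added 1 CPM compresses the difference of a gene this rare.

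Genes that p53 is known to switch on changed in both directions. Of 26, 25 were tested (Rprm was too low), 15 were lower and 8 higher in luminal cells, and Bax and Pidd1 did not pass the threshold. Over all genes 31.2% were lower and 33.6% higher. The median log2 fold change was -0.61, against 0.05 over all genes. Lowest were Gdf15, a stress-induced cytokine (-3.83; 18.1 ± 3.16 CPM in luminal and 257 ± 54.1 in basal libraries, SD, n = 5 each), Sesn2, a stress-induced regulator of growth signalling (-3.16), Phlda3, an inhibitor of Akt (-3.13), and Fas, a death receptor (-2.30). Cdkn1a, which encodes the cell cycle inhibitor p21, was lower as well (-1.09, SE 0.24, adjusted p = 0.00107, edgeR), at 141 ± 56.0 CPM in luminal and 301 ± 37.3 CPM in basal libraries (SD, n = 5 each). Perp, a desmosome component linked to both p53 and p63, was at -1.46.

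Highest in luminal cells among the p53 targets was Plk2, a polo-like kinase, with a log2 fold change of 3.01 (375 ± 101 CPM against 46.4 ± 7.61 CPM in basal libraries, SD, n = 5 each). Eda2r, a receptor of the tumour necrosis factor family, was at 2.83. Gadd45a, a growth arrest gene, went from 113 ± 18.1 CPM in basal to 455 ± 116 CPM in luminal libraries (SD, n = 5 each), and Ccng1, which encodes cyclin G1, was at 1.48. With library totals in place of TMM factors the targets were 9 higher and 10 lower, while over all 14609 genes 5702 were higher and 3705 lower under that setting. With TMM factors, 31.2% of all genes were lower in luminal cells and 33.6% higher. Of 6 genes induced by tissue dissociation, 5 were lower in luminal cells under that scaling (Dusp1, Jun, Atf3, Egr1 and Fos) and Hspa1a was higher. Their summed level was 2439 to 3649 CPM in luminal and 3030 to 5970 CPM in basal libraries. Their part in the differences of stress-responsive targets was not tested.

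Of 24 regulators upstream of p53 and cofactors, 23 were tested, 10 were lower and 5 higher in luminal cells, 8 did not pass the threshold, and the median log2 fold change was -0.33. The 15 genes called are close to the share called over all genes (64.8%, made up of 31.2% lower and 33.6% higher). The largest decreases were in Mtbp, which encodes an Mdm2-binding protein (-2.37), the acetyltransferase gene Crebbp (-1.33), the ubiquitin ligase gene Huwe1 (-1.22) and the checkpoint kinase gene Chek2 (-1.20). Usp7, which encodes a deubiquitinase of Mdm2 and p53, was at -0.61. Higher in luminal cells were Trp53bp2 (1.95) and Ppp1r13b (0.93), both encoding p53-binding ASPP proteins, the kinase gene Hipk2 (0.86) and Rpl11 (1.37), whose ribosomal protein binds Mdm2. Ppp1r13l, the other ASPP gene of the list, was lower (-0.65). Ribosomal protein genes have many near-identical copies in the genome, so the Rpl11 value is uncertain. Cdkn2a, which encodes the Mdm2 inhibitor ARF and the cell cycle inhibitor p16, was too low to be tested, at 0 to 2.21 CPM in luminal and 0 to 0.232 CPM in basal libraries.

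Genes linked to p63 in epithelia were lower in luminal cells almost throughout. Of 20 tested, 19 were lower and none was higher, with Fras1 (-0.44) not past the threshold, where 31.2% of all genes were lower. The median log2 fold change was -1.79. Many of them are also markers of the basal layer, so their direction is not independent of the sort. The lowest were the keratin genes Krt14 (-7.68) and Krt5 (-7.46), Igfbp3, a growth factor binding protein (-7.55), and Col17a1, a hemidesmosome collagen (-7.42). These differences are close in size to that of Trp63 itself. The desmosome gene Dsc3, chosen after its values were seen, rests on basal replicate 4 (55.3 CPM, against 0.685 to 5.03 in the other basal libraries). Its log2 fold change was -3.77 (SE 1.27, adjusted p = 0.0175, edgeR) with that library and -1.21 (adjusted p = 0.313, edgeR) without it.

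Of 5 genes that act on the p63 protein, 3 were lower in luminal cells and none was higher, where 31.2% of all genes were lower and 33.6% higher, with a median log2 fold change of -0.59. These were the ubiquitin ligase genes Wwp1 (-1.47), Nedd4 (-0.87) and Itch (-0.42), the last of which is the best known p63 ligase. The other genes, Stxbp4 (-0.59) and Fbxw7 (-0.11), did not pass the threshold. Itch did not pass with library totals in place of TMM factors (-0.23, adjusted p = 0.156, edgeR).

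**Figure D5:**
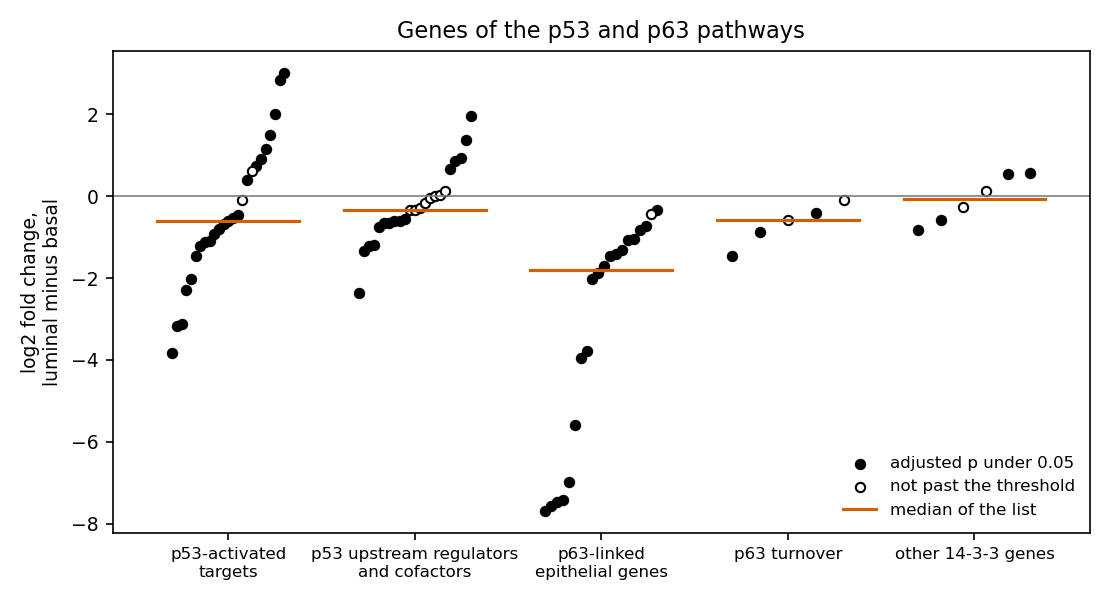
Log2 fold change, luminal minus basal, of every tested gene in 5 lists, one point per gene, with the list median as a line. Filled points passed an adjusted p of 0.05 and open points did not. The p53 targets spread from -3.83 to 3.01, while all 20 p63-linked genes lie below 0.

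Markers of other cell types were low but not equal between the groups. Summed over the list, immune markers were at 4.12 to 11.3 CPM in luminal and 12.2 to 34.4 CPM in basal libraries (5 genes, Cd3e at 0 throughout). In basal libraries the immune sum was mostly Cd74 (20.7 CPM on average, against 2.62 in luminal libraries). Cd52 (log2 fold change 2.03) and Lyz2 (1.69) were higher in luminal cells, where Cd52 averaged 4.64 CPM. Summed pericyte markers were at 0 to 1.47 and 27.4 to 43.0 CPM (3 genes). Endothelial markers (4 genes) were at 2.58 to 6.71 and 6.65 to 13.2 CPM, fibroblast markers (5 genes) at 23.6 to 111 and 25.5 to 41.0 CPM (Dcn higher, at 1.67, and Pdgfra lower, at -1.09, in luminal cells), and adipocyte markers (3 genes, Adipoq at 0 throughout) at 0.610 to 1.59 and 3.94 to 8.87 CPM. The highest fibroblast sum was in luminal replicate 1, where Dcn stood well above its range in the rest of the luminal group (11.6 to 39.5 CPM), and which also had the highest luminal Trp73 and the lowest luminal Mdm2 and Mdm4. Without it the log2 fold changes were -4.87 for Trp73, -0.60 for Mdm2 and -0.56 for Mdm4. Erythroid markers (2 genes counted) were at 3.37 to 16.8 CPM in luminal and 0 to 0.187 CPM in basal libraries. The study's sorting methods also stain blood and endothelial cells with antibodies to TER-119, CD31 and CD45 and lyse red blood cells, while the labels of these libraries name EpCAM and CD49f alone. The part of these markers in the differences of the members was not tested.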

How the data were processed

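RNA-seq counts of 5 luminal and 5 basal libraries were used. The authors deposited whole-number read counts per gene under Entrez identifiers, not normalised. Per the labels, cutadapt 4.2 and Bowtie2 2.3.5.1 were used with mm10. Bowtie2 does not split reads at splice junctions, so genes with short exons may be undercounted. The counting tool, annotation and treatment of strand are not given in the sources used here. The study describes fewer RNA-seq replicates than the 5 here, so that its steps hold for these libraries was assumed.

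Of 24594 genes, 24570 were matched to RefSeq symbols. The cell type label set the groups. After filterByExpr (minimum count 10, minimum total 15) and TMM scaling, 14609 genes were tested with the quasi-likelihood test of edgeR 4.0.16 (R 4.3.3) in a model of cell type alone, with Benjamini-Hochberg adjustment over all genes (threshold 0.05). Exon lengths and exon overlaps were taken from GENCODE M21 annotation, and gene positions and transcript numbers from RefSeq. Shares and ratios were compared by exact two-sided permutation over libraries (scipy 1.17.1), with 95% intervals by inversion of that test.

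Members and lists were chosen with earlier results of these data known. Named genes are the members, the 4 largest increases and 4 largest decreases passing the threshold in each pathway list, Cdkn1a, Ccng1, Perp, Krt5, Krt14, Cdkn2a and Usp7, genes whose exons overlap a member, the genes of the p63 turnover and 14-3-3 lists, and the 3 genes most like each member with at least 10 CPM in the higher group. Beyond this rule, the text names Bax, Pidd1, Rprm and Fras1, list genes that missed the threshold or were not tested. Markers of cell types and genes induced by dissociation are also named beyond it. Wrap53, Dsc3 and Ppp1r13l were chosen after their values were seen. One gene of the p63 turnover list is not reported here, for a reason unrelated to its values, and was left out of its counts.

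Alternatives were other scaling (DESeq2 size factors, upper quartile, library totals), other filters, DESeq2 1.42.0, voom of limma 3.58.1, thinning to 13203146 counts, a block for the replicate number and leaving out each library. The fits were tested on simulated data, in which DESeq2 made more false calls than edgeR.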

Additional observations from a re-analysis of the deposited data

Results flagged for a closer look

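A library stood far from the others of its group, by Dixon's test at the 95% level, in 4 of 110 groups of 5 libraries examined, where chance alone gives about 5.5. None of these was a member. Luminal replicate 4 held Huwe1 at 118 CPM, while the other luminal libraries ran from 176 to 199 CPM. Ppp1r13b was at 12.7 CPM in basal replicate 4, against 16.3 to 17.4 CPM in the other basal libraries. Cdkn2a was at 0.232 CPM in basal replicate 3, against 0 to 0.0599 CPM in the others, a level of a few counts. Dsc3 was at 55.3 CPM in basal replicate 4, against 0.685 to 5.03 CPM in the others.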

How the results depend on the processing

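All 6 members kept their direction and their side of the threshold under every scaling, filter and tool that tested them and with each library left out. Requiring 10 counts or more in all libraries left 4 members tested, without Trp63 and Trp73. Over the settings other than leaving out a library, the log2 fold change ran from -1.31 to -1.05 for Trp53, from -8.03 to -7.76 for Trp63, from -4.63 to -4.07 for Trp73, from -0.76 to -0.49 for Mdm2, from -0.72 to -0.45 for Mdm4 and from -1.49 to -1.25 for Sfn. With a library left out, Trp73 ran from -4.87 to -3.99. Upper-quartile factors and library totals moved the median log2 fold change of all genes from 0.05 to 0.17 and 0.24. Same-numbered libraries share the leading number of their description, which the labels do not explain, and their deviations correlated at -0.134, 0.113, -0.0671, 0.252 and 0.0573 for numbers 1 to 5, so the numbers were not taken as pairs. With the number as a replicate block, log2 fold changes were -1.24, -7.99, -4.45, -0.70, -0.65 and -1.45 for Trp53, Trp63, Trp73, Mdm2, Mdm4 and Sfn, with 9278 genes called in place of 9462, and no member lost its call. The Mdm2 to Trp53 log2 ratio ran from 0.421 to 0.639 with a library left out, and in 7 of 10 cases its exact permutation p was above 0.05. Among 36 single genes and 681 values, 674 kept direction and side, 3 lost the call (Itch with library totals, Dsc3 with limma voom at an adjusted p of 0.0674 and without basal replicate 4) and 4 turned direction, all in genes not past the threshold: Fbxw7 to 0.0164 under the upper quartile, to 0.0698 under library totals and to 0.00694 without luminal replicate 2 (from -0.240 over the left-out libraries), and Ywhab to -0.000505 without luminal replicate 1 (up to 0.218 over the left-out libraries). The cause was not tested. Depth limits Trp73 in luminal libraries, with 1 or 2 counts in 3 of them.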
